A study of Mus with 9 samples.

Results

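The immunoglobulin gene segments were the 231 genes, of 54532 in the deposited table, whose annotation class was immunoglobulin constant region or immunoglobulin variable (V) region. They comprised 13 constant region genes (8 heavy chain, 1 kappa and 4 lambda) and 218 V segments (113 Ighv, 102 Igkv and 3 Iglv). The kidneys came from 9 male C57BL/6 mice, 3 in each group, and all 9 mice had undergone unilateral nephrectomy at 18 months of age. The 18 mo mice were killed soon after the surgery and received no injections. The 21 mo mice received saline intraperitoneally for 12 weeks, and the 21 mo/O304 mice received O304, an activator of the energy-sensing kinase AMPK, at 10 mg/kg/day for the same 12 weeks. Age, time since surgery and 12 weeks of injections therefore differed together between the 18 mo group and both 21 mo groups and cannot be told apart. Bulk RNA-seq of total kidney RNA gave 15636378 to 18396725 gene counts per library.

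An antibody is made of heavy and light chains, each encoded by a V segment joined to smaller segments and spliced to a constant region gene. The heavy chain constant gene sets the class: IgM is made first, and class switching replaces it with IgG, IgE or IgA, while IgA typically serves mucosal surfaces. Light chains are either kappa or lambda, and kappa predominates in mice. Only cells of the B lineage rearrange these loci, and plasma cells, which secrete antibody, hold by far the most of these transcripts, so a small number of them is visible in the RNA of a whole organ. In whole tissue RNA, fewer cells of a type and less RNA per cell cannot be told apart.

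On the GRCm38 (mm10) assembly, the heavy chain constant genes lay on chromosome 12 between 113254830 and 113422730 and the Ighv segments between 113578504 and 116000461, all on the minus strand. The Igkv segments lay on chromosome 6 between 67555497 and 70704177, 38 on the plus and 64 on the minus strand, with Igkc at 70726435 to 70726966. The lambda genes lay on chromosome 16, the constant genes between 19061618 and 19200351 and the V segments between 19085017 and 19260859, all on the minus strand. Of the 231 segments, 33 had no count in any library, among them the constant gene Iglc4, and a further 16 never exceeded 3 counts. There were 84 segments counted in all 9 libraries, and the number counted per library ranged from 117 to 179. The filter on low counts kept 124 segments for testing, 11 constant genes and 113 V segments (47 Ighv, 63 Igkv and 3 Iglv).

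The library of 21 mo replicate 3 stood apart from the rest. Its summed level of 10 kidney epithelial markers was 4290 CPM (counts scaled to a common library size), against 12700 to 41100 CPM in the other 8 libraries, and its 10 macrophage markers summed to 3740 CPM against 306 to 1210 CPM. The transporter Slc34a1, which defines the proximal tubule, was at 471 CPM there and at 1820 to 6280 CPM elsewhere. This library also held the most immunoglobulin, so values without it are given beside the results that it moved, and its part in the results beyond those values was not tested. Red blood cell markers were lowest in this library, at 11.7 CPM, and highest in 21 mo replicate 1, at 917 CPM.

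All immunoglobulin segments together took 1450, 708 and 1360 CPM in 18 mo replicates 1 to 3. The corresponding sums were 937, 605 and 7180 CPM in the 21 mo mice and 1510, 4740 and 2800 CPM in the 21 mo/O304 mice. As a share of all gene counts this was 0.0675% (Wilson 95% interval, 0.0663 to 0.0687) in the 18 mo library with the least and 0.859% in 21 mo replicate 3. Intervals cover counting error only, because reads copied by PCR are not independent molecules. In CPM the 21 mo group thus held both the lowest and the highest library of the study. Every 21 mo/O304 library lay above every 18 mo library on that scale. By share of all gene counts this order did not hold in full. The lowest library was then 18 mo replicate 2, just below 21 mo replicate 2 at 0.068%. Likewise 21 mo/O304 replicate 1, at 0.141%, lay below 18 mo replicate 1, at 0.145%.

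The summed constant region level averaged 1020 ± 323 CPM (SD, n = 3) in the 18 mo mice, 2440 ± 3120 CPM (n = 3) in the 21 mo mice and 2610 ± 1320 CPM (n = 3) in the 21 mo/O304 mice. Without 21 mo replicate 3 the 21 mo mean was 644 ± 153 CPM (n = 2). The ratio of the 21 mo to the 18 mo mean was therefore 2.39 with all libraries and 0.631 without that library. The ratio of 21 mo/O304 to 21 mo was 1.07 with it and 4.05 without it. The ratio of 21 mo/O304 to 18 mo was 2.56 and did not involve it. These are ratios of summed levels over the chosen genes and carry no test. The ratio of 21 mo/O304 to 21 mo also was below 1 without 21 mo replicate 1, 21 mo replicate 2 or 21 mo/O304 replicate 2, with log2 ratios of -0.346, -0.374 and -0.364. The SD of the 21 mo group exceeded its mean, and its direction against the 18 mo group turned only when replicate 3 was left out.

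Across the 3 loci the sums moved together. The heavy chain constant sum was 2.35-fold the 18 mo mean in the 21 mo mice (0.596-fold without replicate 3), the kappa constant gene 2.43-fold (0.68-fold) and the lambda constant sum 2.26-fold (0.429-fold). In the 21 mo/O304 mice the same sums were 2.40, 2.77 and 2.07 times the 18 mo mean. The V segment sums were 2.71-fold for Ighv, 2.95-fold for Igkv and 2.10-fold for Iglv in that comparison. The sums of the heavy and light chain genes thus pointed the same way in both comparisons with the 18 mo mice, although Igha and Ighd had negative fitted log2 fold changes in 21 mo against 18 mo mice.

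Igha encodes the constant region of IgA and was the leading heavy chain gene of 7 of the 9 libraries. Its level was 470, 332 and 655 CPM in the 18 mo mice, 138, 248 and 760 CPM in the 21 mo mice and 583, 1680 and 1130 CPM in the 21 mo/O304 mice. The 21 mo/O304 values overlapped those of both other groups, and the 21 mo group spanned both sides of the 18 mo range. In 21 mo against 18 mo mice its fitted log2 fold change was -0.35 (SE 0.613, edgeR quasi-likelihood adjusted p = 0.742), and -1.35 (edgeR adjusted p = 0.144) without 21 mo replicate 3. Between 21 mo/O304 and 21 mo mice it was 1.57 (SE 0.627, edgeR adjusted p = 0.216), or 2.56 (edgeR adjusted p = 0.211) without 21 mo replicate 3. Against 18 mo mice it was 1.22 in the 21 mo/O304 group (edgeR adjusted p = 0.573).

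Ighm, the IgM constant gene, spanned a wider range than Igha. It stood at 29.0, 14.5 and 17.7 CPM in the 18 mo mice, at 195, 25 and 1450 CPM in the 21 mo mice and at 40.2, 155 and 66.3 CPM in the 21 mo/O304 mice. Every 21 mo/O304 library lay above every 18 mo library, while 21 mo replicate 2 lay within the 18 mo range. The log2 fold change of 21 mo against 18 mo mice was 4.77 (SE 1.28, edgeR adjusted p = 0.0827) and 2.41 (edgeR adjusted p = 0.127) without 21 mo replicate 3. Between 21 mo/O304 and 18 mo mice it was 2.09 (edgeR adjusted p = 0.596, exact permutation test on CPM, two-sided p = 0.1, which groups of 3 cannot go below). Relative to 21 mo mice it was -2.68 in the treated mice (edgeR adjusted p = 0.235), and -0.33 without 21 mo replicate 3.

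The 4 IgG subclass genes, which encode the classes that dominate serum antibody after immunisation, varied widely between mice. Ighg2b was at 167, 9.67 and 16.4 CPM in the 18 mo mice, 33.6, 5.06 and 607 CPM in the 21 mo mice and 22.1, 155 and 64.1 CPM in the 21 mo/O304 mice. Ighg2c followed with 50.1, 4.74 and 11 CPM, then 40, 2.73 and 574 CPM, then 30.2, 217 and 46.8 CPM in the same order. Both genes overlapped between all groups, and the same library of each group, 18 mo replicate 1, 21 mo replicate 3 and 21 mo/O304 replicate 2, was the highest for both. Their highest library exceeded their lowest by 120-fold for Ighg2b and 210-fold for Ighg2c, against 12.1-fold for Igha. In 21 mo against 18 mo mice the log2 fold change was 1.74 for Ighg2b (SE 1.58, edgeR adjusted p = 0.499) and 3.23 for Ighg2c (SE 1.64, edgeR adjusted p = 0.243). Without 21 mo replicate 3 these values were -1.75 and -0.06.

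Ighg1 had the largest fitted log2 fold change of the IgG subclass genes in both comparisons with the 18 mo mice. It stood at 6.01, 0.37 and 3.51 CPM in the 18 mo mice, where 18 mo replicate 2 had 6 counts. The 21 mo mice had 17.9, 5.91 and 91.0 CPM and the 21 mo/O304 mice 23.6, 30.3 and 40.9 CPM. The 21 mo/O304 group, at 31.6 ± 8.76 CPM (SD, n = 3), lay wholly above the 18 mo group at 3.29 ± 2.83 CPM, with a log2 fold change of 3.26 (SE 1.04, edgeR adjusted p = 0.39, exact permutation test two-sided p = 0.1). In 21 mo against 18 mo mice the log2 fold change was 3.54 (SE 1.05, edgeR adjusted p = 0.0933), and 1.83 (edgeR adjusted p = 0.196) without 21 mo replicate 3.

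Ighg3, the 4th subclass, reached 10.7 CPM in 21 mo replicate 3 and 7.19 CPM in 21 mo/O304 replicate 3 and stayed at or below 1.42 CPM in the remaining 7 libraries. Ighd, the IgD constant gene of naive B cells, lay between 0.227 and 2.38 CPM. Ighe, the IgE gene, was absent from 3 libraries and reached 1.07 CPM at most, in 18 mo replicate 3. A count of 0 in a library allows up to 3 counts, and 1 count was worth 0.0458 to 0.0669 CPM. Ighd and Ighe were therefore near the limit of detection at this depth.

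**Figure D1:**
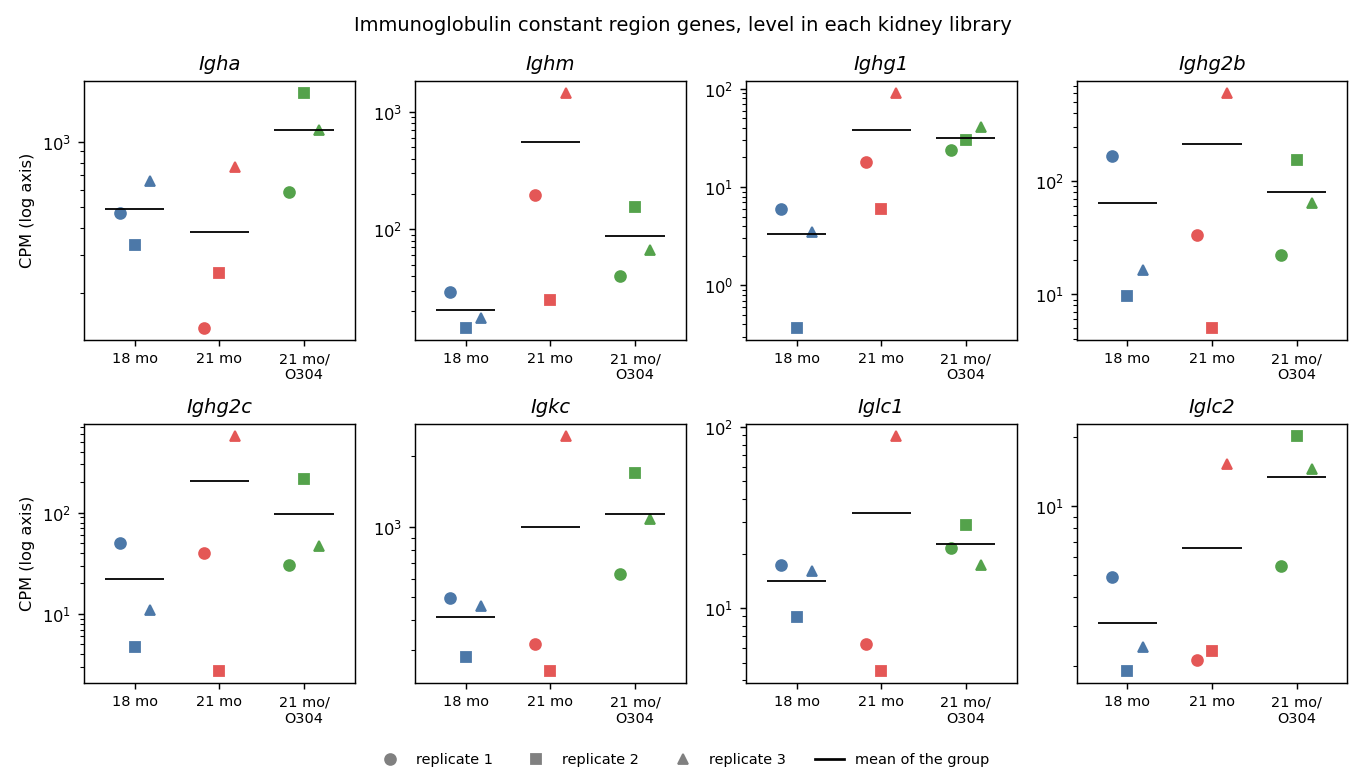
Level of 8 constant region genes in each kidney library, in CPM on log axes that differ between panels; symbols are the 3 mice of each group and the line is the mean of the group. In the panels other than Igha and Iglc2, 21 mo replicate 3 (triangle) is the highest of the 9 libraries, for example 1450 CPM for Ighm, while all 21 mo/O304 mice lie above all 18 mo mice for Ighm, Ighg1, Igkc, Iglc1 and Iglc2.

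The heavy chain classes were next compared within each library on the FPKM scale, which divides the counts by gene length. Igha made up 59.7%, 88.9% and 90.4% of the summed heavy chain constant FPKM in the 18 mo mice and 78%, 66.5% and 78.9% in the 21 mo/O304 mice. In the 21 mo mice its share was 25.3%, 82.5% and 16.2%. IgA was thus the leading class in all mice of the other two groups and in 21 mo replicate 2, whereas in 21 mo replicates 1 and 3 it was not. Ighm led in those 2 mice, with 50.3% and 43.9% of the heavy chain FPKM, against 3.46% to 11.8% in the other 7. The ratio of Igha to Ighm FPKM was 0.502 and 0.37 in these 2 libraries and 7 to 26.1 elsewhere.

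The 4 IgG genes together took 34.9%, 5.31% and 5.82% of the heavy chain FPKM in the 18 mo mice, 24.3%, 5.58% and 39.9% in the 21 mo mice and 14.3%, 24.7% and 14.5% in the 21 mo/O304 mice. In 18 mo replicate 1 the IgG share rested on Ighg2b, which held 60.5% of the IgG FPKM of that mouse, while Ighg2c held 61.9% of it in 21 mo replicate 3. The Ighg1 share of IgG FPKM was 36.4% in 21 mo replicate 2, whose IgG total was the lowest of the study, and lay between 1.92% and 22.6% in the others. The Ighg2b share of IgG FPKM was 60.5%, 48.6% and 38.8% in the 18 mo mice, above all values of the 21 mo mice (25.2%, 30.1% and 32.4%) and of the 21 mo/O304 mice (20.5%, 24.8% and 30.7%). By counts the 18 mo mice were likewise above the others, at 53.0% to 74.4% against 29.0% to 47.3%. The Ighg2c and Ighg1 shares overlapped between the 21 mo and the 21 mo/O304 mice. The gene models counted here differ in extent, 2678 bases for Ighg2b and 1326 bases for Ighg2c, so the FPKM scale favours Ighg2c over the counts, in which Ighg2b held 74.4% of IgG in 18 mo replicate 1.

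**Figure D2:**
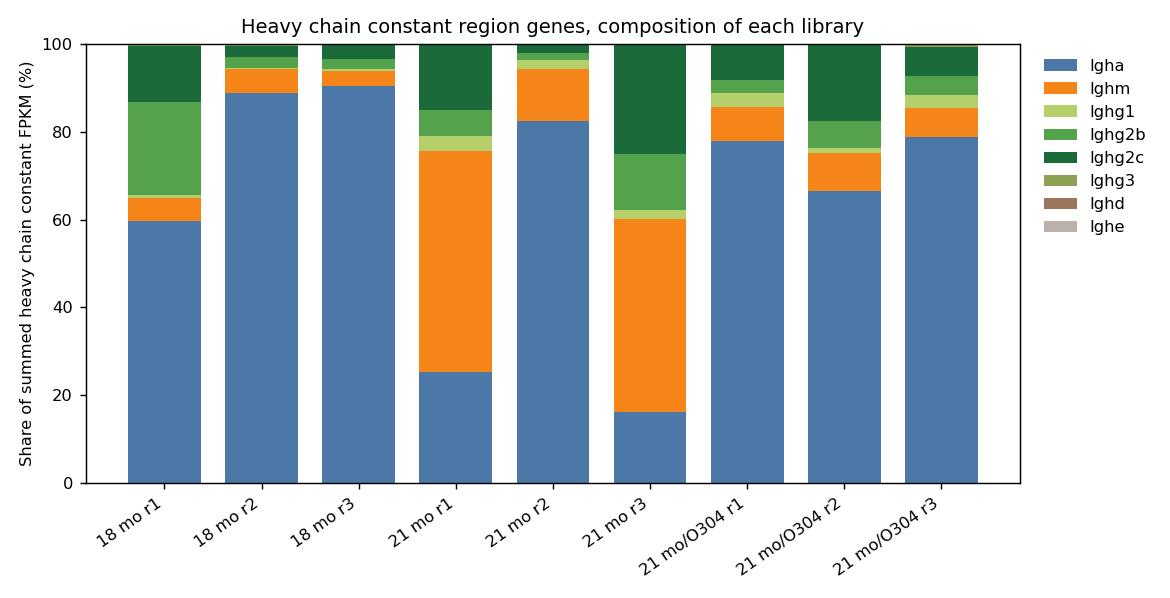
Share of the summed heavy chain constant region FPKM taken by each of the 8 heavy chain genes in each of the 9 libraries, as stacked bars that add up to 100%. Igha (blue) is the largest part of 7 bars, and Ighm (orange), at 50.3% and 43.9%, is the largest part in 21 mo replicates 1 and 3.

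Igkc, the kappa constant gene, was the most abundant immunoglobulin gene by FPKM, at 2.62 to 4.24 times the summed heavy chain FPKM of the same library. It stood at 498, 279 and 458 CPM in the 18 mo mice, 318, 243 and 2440 CPM in the 21 mo mice and 632, 1700 and 1080 CPM in the 21 mo/O304 mice. By count it ranked 216th, 570th and 264th of all genes in the 18 mo libraries, 16th in 21 mo replicate 3 and 47th in 21 mo/O304 replicate 2. All 21 mo/O304 mice lay above all 18 mo mice, with a log2 fold change of 1.46 (SE 0.818, edgeR adjusted p = 0.61, exact permutation test two-sided p = 0.1). For 21 mo against 18 mo mice it was 1.28 (SE 0.814, edgeR adjusted p = 0.337) and -0.57 without 21 mo replicate 3, and for 21 mo/O304 against 21 mo mice 0.18 (edgeR adjusted p = 0.908) and 2.03 without that library.

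The lambda chain was a minor and stable part of the light chains. The 3 lambda constant genes with counts made up 2.91% to 4.94% of the light chain FPKM in all 9 libraries. Iglc1 was at 17.2, 8.93 and 16.1 CPM in the 18 mo mice, 6.36, 4.49 and 89.2 CPM in the 21 mo mice and 21.5, 28.8 and 17.3 CPM in the 21 mo/O304 mice. Its 18 mo and 21 mo/O304 groups did not overlap, but the closest pair of mice differed by less than 1 CPM, and the log2 fold change was 0.68 (SE 0.949, edgeR adjusted p = 0.871, exact permutation test two-sided p = 0.1). Iglc2 was at 4.89, 1.91 and 2.43 CPM, then 2.14, 2.33 and 15.2 CPM, then 5.47, 20.2 and 14.5 CPM in the same order. Iglc2 differed by a log2 fold change of 2.12 between 21 mo/O304 and 18 mo mice (SE 0.821, edgeR adjusted p = 0.471, exact permutation test two-sided p = 0.1). The annotation places an antisense gene, 2010309G21Rik, across Iglv1, Iglc1 and Iglc3 and the joining segment Iglj2 within Iglc2, and Igkc shares its position with Gm30211. Whether the counting used strand is not given in the sources used here, so reads from these partners cannot be separated.

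None of the 124 tested segments passed an adjusted p of 0.05 in any of the 3 comparisons by edgeR's quasi-likelihood test. Over all 15902 genes tested, 0.0189% were called higher and 0% lower in 21 mo against 18 mo mice, and 0% in both directions in the other comparisons. At an unadjusted p under 0.05 there were 14 segments in 21 mo against 18 mo mice, 6 in 21 mo/O304 against 21 mo mice and 17 in 21 mo/O304 against 18 mo mice, while 26.1%, 20.7% and 9.66% of all genes were under it. DESeq2 called 8, 1 and 1 segments in these comparisons, all of them higher, where it called 6.90%, 1.71% and 0.325% of all genes higher and 5.41%, 4.04% and 0.559% lower. The 8 were Ighm, Ighg1, Ighv1-18, Ighv14-4, Igkv3-1, Igkv3-2, Igkv4-57-1 and Igkv12-41, and Ighv1-52 was the 1 segment of both other comparisons. With every gene of at least 1 count tested by edgeR, Ighm, Ighg1 and Igkv4-57-1 were called higher in 21 mo against 18 mo mice, where 1.43% of all genes were called higher and 0.609% lower, and no segment was called in the other comparisons, where at most 0.0319% of all genes were called higher and 0.0283% lower. Without 21 mo replicate 1 edgeR called 7 segments higher in that first comparison, where 13.6% of all genes were called higher and 11.9% lower. A limma voom fit with sample quality weights, which gives less weight to libraries that vary more, called 28, 70 and 3. In 21 mo against 18 mo mice that fit called 2 segments higher and 26 lower, where it called 26.3% of all genes higher and 26.6% lower. All 70 of its calls in 21 mo/O304 against 21 mo mice were higher, against 21.2% of all genes higher and 19.8% lower, as were the 3 against 18 mo mice, against 1.04% higher and 1.57% lower. Without 21 mo replicate 3 edgeR called 0 of 133 segments in each comparison, where 0.378% of all genes were called higher and 0.428% lower in 21 mo against 18 mo mice, 0% and 0.0062% in 21 mo/O304 against 21 mo mice and 0.0372% and 0.0372% in 21 mo/O304 against 18 mo mice. At an unadjusted p under 0.05 there were then 10, 52 and 41 segments of 133, while 22.1%, 14.1% and 15.3% of all genes were under it.

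The fitted directions followed the sums. In 21 mo against 18 mo mice 104 of the 124 segments had a positive and 20 a negative log2 fold change, with a median of 1.13 against 0.03 over all genes. The filter was repeated when a library was left out, and 133 segments were tested without 21 mo replicate 3. Of these, 43 were positive and 88 negative in this comparison, with a median of -0.47 against -0.01. In 21 mo/O304 against 21 mo mice the median was 0.41 against -0.02 over all genes, and 2.07 against 0.01 without 21 mo replicate 3. In this comparison it was also -0.30 without 21 mo/O304 replicate 2. In 21 mo/O304 against 18 mo mice 121 segments were positive and 3 negative, with a median of 1.54 against 0.00 over all genes, and 1.52 without 21 mo replicate 3. The lowest median of this comparison when any 1 library was left out was 0.86, without 21 mo/O304 replicate 2. Both comparisons with 18 mo mice share those 3 control libraries, and both comparisons with saline-treated mice share the 21 mo libraries. Segments of the same locus are read from the same cells and are not replicates.

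**Figure D3:**
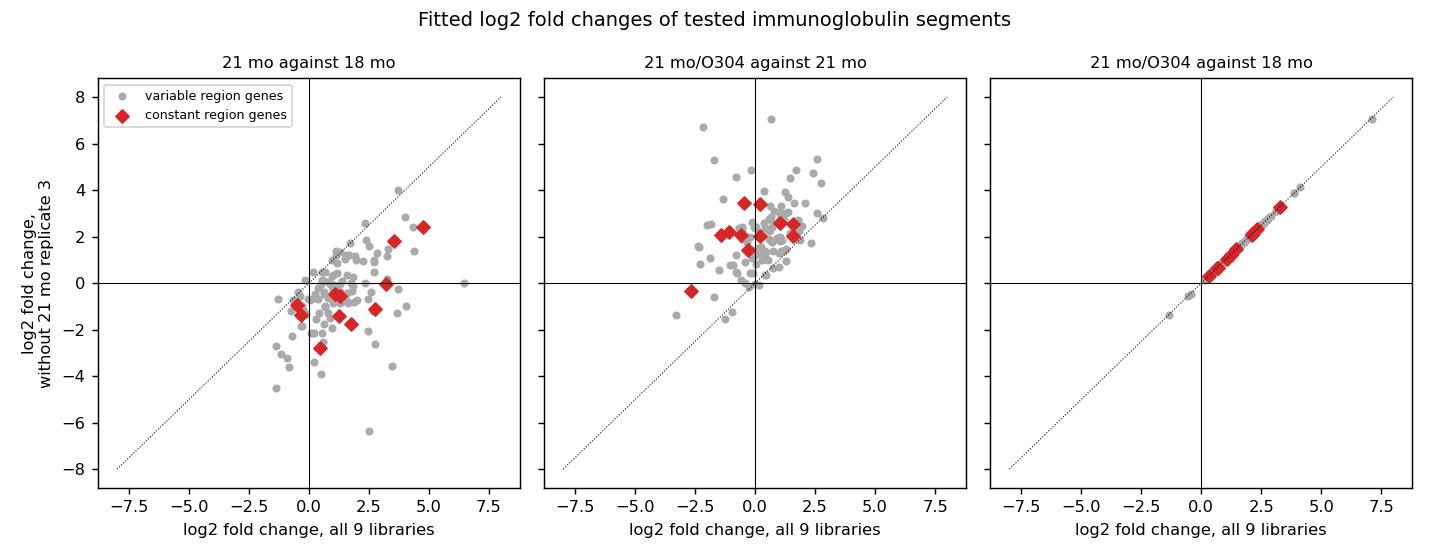
Fitted log2 fold change of each tested immunoglobulin segment with all 9 libraries (horizontal axis) and without 21 mo replicate 3 (vertical axis) in the 3 comparisons; red diamonds are constant genes, grey points V segments and the dotted line marks equal values. In the first panel most points fall below the dotted line and the median goes from 1.13 to -0.47. In the second they lie above it (0.41 to 2.07), and in the third, which does not use that library, they stay on the line. The points are the 124 segments tested with all libraries, while the medians without that library are over the 133 segments tested then.

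Complete separation of the groups was counted next. Between 21 mo/O304 and 18 mo mice 28 of the 124 segments (22.6%) were higher in every treated mouse than in every 18 mo mouse and 0 were lower, where 13.2% of all genes were separated upwards and 13.3% downwards. The 28 comprised the 5 constant genes named above, Ighm, Ighg1, Igkc, Iglc1 and Iglc2, and 23 V segments, with Ighv1-26, Ighv1-9, Ighv1-52 and Iglv1 among those described here. In 21 mo against 18 mo mice 3 segments were separated, all upwards, where 13.5% of all genes were separated upwards and 15.3% downwards. These were Igkv12-41, Igkv3-1 and Ighv1-75, named after their values were seen. For 21 mo/O304 against 21 mo mice only Igkv2-109, likewise named afterwards, was separated upwards, where 10.8% of all genes were.

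The V segments were compared by their share of the V counts of the locus in each library. The 3 leading Ighv segments of the pooled libraries took 23.1% of all Ighv counts and the leading 10 took 46.5%, and the corresponding Igkv shares were 26.4% and 51.4%. Ighv1, the largest Ighv family with 53 segments, took 50% to 76.0% of the Ighv counts of a library. Iglv1 took 82.3% to 96.6% of the Iglv counts. There were 8 different leading Ighv segments over the 9 libraries.

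In the 18 mo mice the leading Ighv segments were Ighv1-72 with 17.6% of Ighv counts (Wilson 95% interval, 15 to 20.4), Ighv8-12 with 9.22% (5.98 to 14) and Ighv1-74 with 4.77% (3.55 to 6.38). In the 21 mo mice they were Ighv1-53 with 12.1%, Ighv9-3 with 11.4% and Ighv1-72 with 18.3% (17.3 to 19.3). In the 21 mo/O304 mice they were Ighv1-9 with 10.3%, Ighv1-26 with 6.66% and Ighv5-17 with 6.75%. Ighv1-72 had 0.568% in 18 mo replicate 3, so mice of the same group differed beyond counting error. Ighv1-74, which led in 18 mo replicate 3, had 0 counts in 18 mo replicate 1, where 3 of 762 Ighv counts is the limit that a count of 0 allows.

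Ighv1-72 was at 8.30, 1.05 and 0.283 CPM in the 18 mo mice, 1.34, 0.227 and 50.9 CPM in the 21 mo mice and 0.465, 10.4 and 2.23 CPM in the 21 mo/O304 mice. It was the Ighv segment with the most counts over the study, and most of them came from 21 mo replicate 3. Ighv1-9, by contrast, was at 0.248, 0.493 and 1.02 CPM in the 18 mo mice and at 3.31, 3.34 and 4.78 CPM in the 21 mo/O304 mice, with 0.936 CPM, a count of 0 and 3.39 CPM in the 21 mo mice. It was thus at a similar level in the 3 treated mice and above all 18 mo values, and it did not pass the edgeR test. Ighv1-52, whose edgeR p was the smallest of all segments in both comparisons of the treated mice and which is named after its values were seen, was at 12 CPM in 21 mo/O304 replicate 2 and at 0.698 and 2.48 CPM in the other two treated mice.

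Among kappa segments 5 different ones led. Igkv5-43 led in 18 mo replicate 1 with 21.6% of Igkv counts (Wilson 95% interval, 19.9 to 23.3), and its share was 0.313% to 5.74% in the other 8 libraries. Igkv3-2 led in 21 mo replicate 3 with 23.3% (22.6 to 23.9), in 21 mo replicate 1 with 11.4% and in 21 mo/O304 replicate 3 with 7.53%. Igkv1-117 led in 18 mo replicates 2 and 3 with 8.23% and 9.78% and in 21 mo/O304 replicate 1 with 10.6%. Igkv17-127 led in 21 mo/O304 replicate 2 with 10.8% and Igkv5-39 in 21 mo replicate 2 with 8.47%. Igkv17-127 had 8.61% in 21 mo replicate 3 as well but at most 1.87% in the remaining 7 libraries. The leading kappa share exceeded 11.4% in 2 mice only, 18 mo replicate 1 and 21 mo replicate 3.

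In level, Igkv3-2 was at 4.95, 1.54 and 2.55 CPM in the 18 mo mice, 14.6, 1.48 and 172 CPM in the 21 mo mice and 2.85, 30.4 and 17.6 CPM in the 21 mo/O304 mice. The highest library of Igkv3-2 exceeded the lowest by 117-fold. Igkv1-117 was more even (9.46-fold), with 5.88, 2.83 and 10.9 CPM, then 6.56, 3.07 and 20.6 CPM, then 10.6, 26.8 and 11.7 CPM in the same order. Igkv17-121, the second kappa segment by counts over the study, was at 9.66, 72.8 and 34.6 CPM in 18 mo replicate 1, 21 mo replicate 3 and 21 mo/O304 replicate 2 and at or below 5.60 CPM in the rest. All of these segments overlapped between groups. The same 3 libraries were those with the highest Ighg2b and Ighg2c of their groups.

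**Figure D4:**
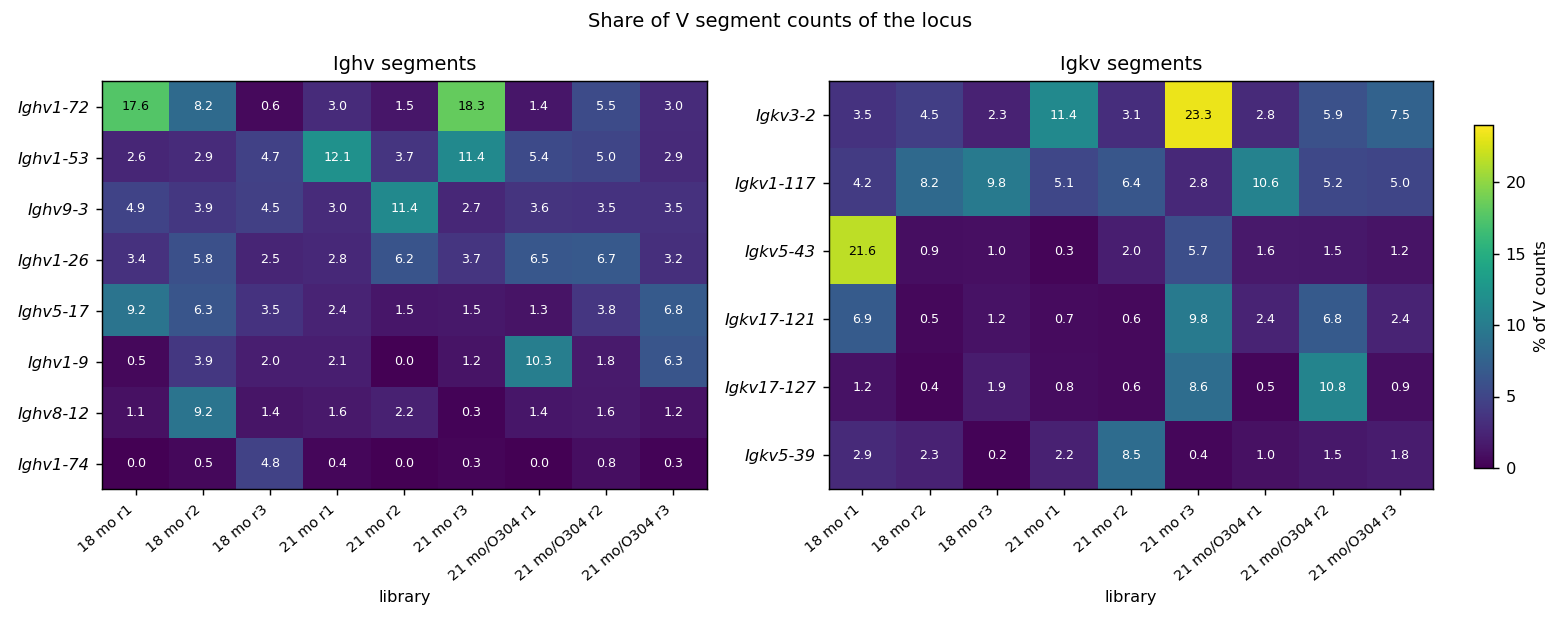
Share of the V segment counts of the locus, in percent, for 8 Ighv and 6 Igkv segments (rows) in the 9 libraries (columns); the segments are those that led in some library or over the study, and colour and number give the same value. The bright cells, such as Igkv5-43 in 18 mo replicate 1 (21.6%) and Igkv3-2 in 21 mo replicate 3 (23.3%), are not shared by all 3 mice of a group; Ighv1-72 is bright in 18 mo replicate 1 and 21 mo replicate 3, and Ighv1-53 and Igkv3-2 in 21 mo replicates 1 and 3.

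How evenly the counts were spread was measured by the effective number of segments, the number of equally used segments that would give the same concentration. For Ighv it was 17.4, 22.0 and 40.7 in the 18 mo mice, 23.4, 23.2 and 15 in the 21 mo mice and 25.1, 34.9 and 34.4 in the 21 mo/O304 mice. For Igkv it was 15.1, 29.5 and 31.3, then 22.7, 28.1 and 11.8, then 31.7, 24.5 and 35.3 in the same order. With each library thinned to the 206 Ighv counts of the shallowest, the Ighv values were 16.4, 22.0, 35.2, 21.8, 22.7, 14.4, 23.4, 30.5 and 30.3. With thinning to 559 Igkv counts the Igkv values ranged from 11.7 in 21 mo replicate 3 to 33.7 in 21 mo/O304 replicate 3. The groups overlapped in both loci.

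The 2 libraries with the lowest effective numbers in both loci, 21 mo replicate 3 and 18 mo replicate 1, were also those with the largest IgG share of heavy chain FPKM, 39.9% and 34.9%. The next in IgG share, 21 mo/O304 replicate 2 and 21 mo replicate 1 with 24.7% and 24.3%, had 24.5 and 22.7 effective Igkv segments, and the other 5 libraries, at 5.31% to 14.5% IgG, had 28.1 to 35.3. For Ighv no such order was seen beyond the 2 lowest libraries. There 21 mo/O304 replicate 2, at 24.7% IgG, had 34.9 effective segments. In contrast, 18 mo replicate 2, at 5.31% IgG, had 22.0, and 21 mo replicate 2, at 5.58% IgG, had 23.2. This is a description over 9 libraries, with both measures taken from the same libraries, 1 from V segments and 1 from constant genes.

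Reads on Ighv and Igkv segments were fewer than reads on the constant genes of their locus in every library. Iglv counts exceeded the lambda constant counts in 21 mo replicate 1 (167 against 130) and 21 mo replicate 3 (2473 against 2368). The ratio of V to constant counts differed between loci and mice. Per 100 constant region counts there were 3.50 to 10.7 Ighv counts, 12.3 to 40.3 Igkv counts and 69.5 to 128 Iglv counts. The heavy and kappa ratios were lowest in 18 mo replicate 2 and highest in 21 mo replicate 1. V segments that resemble each other share sequence, and how reads that fit several segments were counted is not given in the sources used here, so shares of closely related segments are uncertain. The share of counts from the end of the locus next to the constant genes also varied between mice, since the 56 Ighv segments nearest to the constant genes took 25.4% of Ighv counts in 21 mo replicate 3 and 48.5% in 21 mo replicate 2.

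The genes that plasma cells use to make and secrete antibody were listed alongside. None of 12 plasma cell markers passed the edgeR test in any comparison, with 10, 9 and 10 of the 12 at a positive log2 fold change (in order, the aged saline mice against the 18 mo mice, then the treated mice against the saline mice and against the 18 mo mice; counts of 3 below follow this order). At an unadjusted p under 0.05 there were 3, 1 and 5 of them. Over all genes tested 26.1%, 20.7% and 9.66% were under it, and these shares apply to the lists below as well. Their medians were 0.80, 0.29 and 1.04, and 0.23, 0.50 and 1.04 without 21 mo replicate 3. The summed level of the list was 320, 303 and 439 CPM in the 18 mo mice, 323, 416 and 1030 CPM in the 21 mo mice and 505, 1120 and 819 CPM in the 21 mo/O304 mice.

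Jchain, which links IgA and IgM into polymers, was at 131, 99.4 and 217 CPM in the 18 mo mice, 85.1, 102 and 608 CPM in the 21 mo mice and 207, 670 and 541 CPM in the 21 mo/O304 mice. The log2 fold change was 0.83 in 21 mo against 18 mo mice (edgeR adjusted p = 0.497) and -0.69 without 21 mo replicate 3. It was 1.67 in 21 mo/O304 against 18 mo mice (SE 0.766, edgeR adjusted p = 0.532) and 0.83 in 21 mo/O304 against 21 mo mice (edgeR adjusted p = 0.519), or 2.34 (edgeR adjusted p = 0.223) without 21 mo replicate 3. Mzb1, a chaperone of antibody assembly, was at 6.69, 3.82 and 6.05 CPM, then 2.94, 1.99 and 17.7 CPM, then 5.06, 17.0 and 15.3 CPM in the same order. Both genes were high in 21 mo replicate 3 and in 21 mo/O304 replicates 2 and 3, which were also the 3 libraries with the most Igkc. Other markers of the list went the other way. Sdc1 was at 23.4, 16.9 and 17.9 CPM in the 18 mo mice and 16.6, 14.1 and 15.3 CPM in the 21 mo/O304 mice. Fkbp11 was at 6.07, 4.68 and 7.3 CPM in the 18 mo mice and 2.85, 3.64 and 4.2 CPM in the 21 mo/O304 mice. Both were thus lower in every treated mouse than in every 18 mo mouse, where 13.3% of all genes were separated downwards. Tnfrsf17, the plasma cell receptor BCMA, was at 0.113 to 0.124 CPM in the 18 mo mice and at 0.536 to 0.698 CPM in the 21 mo/O304 mice. In the 21 mo mice it was at 0.134, 0.227 and 0.55 CPM, so replicate 3 lay within the 21 mo/O304 range. These are levels of few counts, and Tnfrsf17 did not pass the test. Xbp1 was at 135, 164 and 170 CPM in the 18 mo mice and 250, 368 and 215 CPM in the 21 mo/O304 mice. In the 21 mo mice it was at 196, 251 and 229 CPM. Irf4 was at 0.805, 0.863 and 1.81 CPM, then 1.74, 2.84 and 9.16 CPM, then 2.33, 4.77 and 2.8 CPM in the order of the groups above.

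Of 16 B cell markers 10 were tested and none passed in any comparison by edgeR, with 8, 7 and 9 at a positive log2 fold change and 1, 1 and 2 at an unadjusted p under 0.05. Cd79a, a signalling chain of the B cell receptor, was at 1.49, 0.739 and 1.98 CPM in the 18 mo mice, 0.870, 0.398 and 2.47 CPM in the 21 mo mice and 2.68, 6.20 and 4.14 CPM in the 21 mo/O304 mice. All 3 treated mice lay above the other 6 in CPM, with a log2 fold change of 1.77 against 21 mo mice (SE 0.648, edgeR adjusted p = 0.198), or 2.79 (edgeR adjusted p = 0.223) without 21 mo replicate 3, and of 1.62 against 18 mo mice (SE 0.646, edgeR adjusted p = 0.477). In unscaled counts 21 mo replicate 3, with 54, exceeded 21 mo/O304 replicate 1, with 46. The markers Cd79b, Cd22 and Fcrla overlapped between treated and 21 mo mice. Cd79b and Cd22 were highest in 21 mo replicate 3, at 10.1 and 3.53 CPM, and Fcrla in 21 mo/O304 replicate 2, at 3.22 CPM. Ms4a1, the B cell surface protein CD20, did not separate the groups, at 0.743, 0.246 and 0.849 CPM, then 0.602, 0.341 and 2.11 CPM, then 0.116, 2.03 and 1.34 CPM. The summed B cell list reached 13.6 to 39.1 CPM, against 303 to 1120 CPM for the plasma cell list. These sums do not compare numbers of cells. Xbp1 alone made 251 of the 416 CPM of the plasma cell list in 21 mo replicate 2, the library with the least Igkc. Which cells the Xbp1 counts came from was not tested.

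The list for germinal centres, the sites where B cells switch class and mutate, had 4 tested members of 10, and none passed (0, 1 and 0 at an unadjusted p under 0.05 by edgeR). Of 6 genes for early B cell recombination and the surrogate light chain only Vpreb1 was tested, at 0.137 to 1.28 CPM, and it did not pass.

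Signals that attract and maintain B cells and plasma cells did not pass either (0 of 9 tested in each comparison by edgeR, with 2, 2 and 0 at an unadjusted p under 0.05). Cxcl13, the chemokine that draws B cells into lymphoid follicles, was at 108 CPM in 21 mo replicate 3 and at 0.308 to 2.42 CPM in the other 8 libraries. Its log2 fold change of 6.07 in 21 mo against 18 mo mice (edgeR adjusted p = 0.094) was 1.02 without that library. Tnfsf13b, the B cell survival factor BAFF, was at 3.96, 2.16 and 4.41 CPM in the 18 mo mice, 6.76, 7.5 and 20.2 CPM in the 21 mo mice and 4.07, 5.07 and 3.57 CPM in the 21 mo/O304 mice. It was higher in each 21 mo mouse than in each mouse of the other groups, with a log2 fold change of 1.71 against 18 mo mice (SE 0.46, edgeR adjusted p = 0.0832), and 1.00 without 21 mo replicate 3. BAFF was thus highest in the saline-treated group, while immunoglobulin was high in 1 of those 3 mice.

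**Figure D5:**
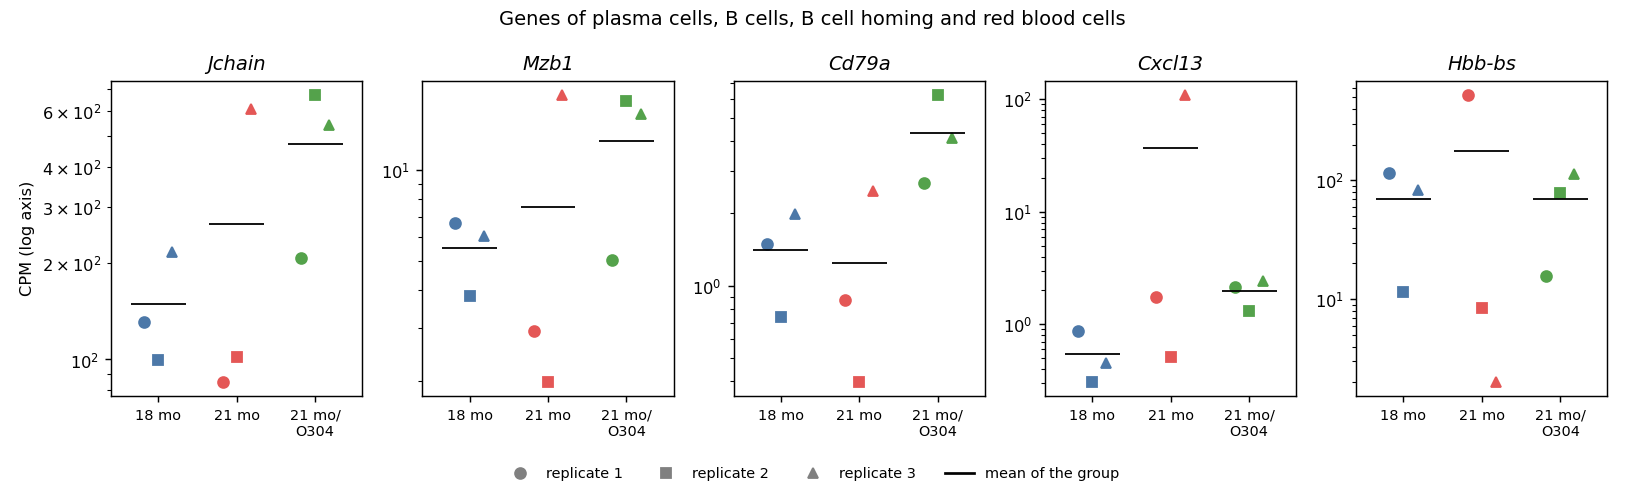
Level of the plasma cell genes Jchain and Mzb1, the B cell gene Cd79a, the chemokine Cxcl13 and the haemoglobin gene Hbb-bs in each library, in CPM on log axes that differ between panels; symbols are mice and the line is the mean of the group. Jchain and Mzb1 are high in 21 mo replicate 3 and 21 mo/O304 replicates 2 and 3, Cxcl13 reaches 108 CPM in 21 mo replicate 3 only, and Hbb-bs is lowest in that library at 2.02 CPM.

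Fc receptors, through which other cells bind antibody, and the proteins that carry antibody across epithelia formed the last list, of which 9 were tested and none passed by edgeR with all libraries (6, 5 and 0 at an unadjusted p under 0.05). Fcgr3, an IgG receptor of macrophages, was at 14, 11.6 and 17.3 CPM in the 18 mo mice, 38.9, 59.8 and 272 CPM in the 21 mo mice and 24.7, 24.2 and 27.7 CPM in the 21 mo/O304 mice. Its log2 fold change in 21 mo against 18 mo mice was 3.11 (edgeR adjusted p = 0.0626), and without 21 mo replicate 3 it was 1.77 (edgeR adjusted p = 0.0286). Fcgr1, the high-affinity IgG receptor, gave 2.14 (edgeR adjusted p = 0.0626) and 1.49 (edgeR adjusted p = 0.0481) in these fits. Fcgr1 and Fcgr3 were the 2 members of the list called without that library, where 0.378% of all genes were called higher. Both receptors were higher in every 21 mo mouse than in every other mouse, unlike the IgG genes themselves. Pigr, which carries polymeric IgA across epithelial cells, was at 192 to 673 CPM, and Fcgrt, which recycles IgG, at 123 to 335 CPM.

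Other cell types were measured beside these genes. None of 12 T cell, 10 macrophage, 6 red blood cell and 10 kidney markers tested passed the edgeR test in any comparison. Without 21 mo replicate 3 the macrophage genes Adgre1, Mrc1 and Lyz2 did in 21 mo against 18 mo mice, all 3 higher, where 0.378% of all genes were called higher. At an unadjusted p under 0.05 there were 9, 8 and 2 macrophage, 2, 0 and 1 T cell, 3, 3 and 0 kidney and no red blood cell markers by edgeR. Over all genes tested 26.1%, 20.7% and 9.66% were under it. All 10 macrophage markers had a positive fitted log2 fold change in 21 mo against 18 mo mice, with a median of 1.76, and of 0.95 without 21 mo replicate 3. The T cell sum was highest in 21 mo/O304 replicate 2, at 65.0 CPM, and in 21 mo replicate 1, at 55.9 CPM, against 16.1 to 34.4 CPM in the other 7. Hbb-bs, the beta globin of red blood cells, was at 2.02 CPM in 21 mo replicate 3, which held the most immunoglobulin, and at 519 CPM in 21 mo replicate 1, which held little. In the treated mice Hbb-bs was at 15.6, 77.7 and 114 CPM, within the 18 mo range of 11.5 to 115 CPM. The part of blood and of other infiltrating cells in the immunoglobulin counts beyond these values was not tested.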

How the data were processed

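Total RNA from 9 kidneys was made into NEBNext Ultra libraries. The submitters' processing notes name HISAT2 2.0.5, featureCounts 1.5.0-p3, DESeq2 1.20.0 and the GRCm38 (mm10) build, and the authors deposited 1 table with read counts per gene and FPKM per gene for each library. Strandedness and the handling of reads that map to several genes are not given in the sources used here. The table also holds 10 columns of the authors' own comparisons (group means, log2 fold changes and p-values), which were not used. Every library column was matched to its sample by the submitters' description, and 0 sample columns were left out.

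The segments were taken by annotation class. The members, the gene lists and the tests were chosen with earlier results of these data known. Counts were tested over all genes with edgeR 4.0.16 (quasi-likelihood test, TMM, all 9 libraries, 3 group means) after the filterByExpr filter (minimum count 10, minimum total 15), with Benjamini-Hochberg adjustment and a threshold of 0.05. The study's methods name DESeq2, which was run as an alternative (1.42.0), beside limma 3.58.1 (voom with quality weights). Levels are TMM-normalised CPM computed from the deposited counts, and only comparisons between genes use the authors' FPKM. The labels call the libraries of a group separate samples and say no more, so p-values measure the spread between these samples, which may be technical in part. Depth was 15636378 to 18396725 counts per library, and 1 count was worth 0.0458 to 0.0669 CPM. Single genes whose groups separated were also compared by an exact permutation test, two-sided, for which 0.1 is the smallest p. The effective number is the inverse of the summed squared shares of V counts, and thinning used 100 draws. Shares carry Wilson 95% intervals.

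All constant genes are named, as are the 3 V segments with the most counts of each locus, the segment leading in each library, and from the lists fixed genes (such as Jchain and Cd79a) with up to 3 of the smallest p. No V segment passed the threshold, so the rule named none for its change. Ighv1-52 (smallest p), the 4 V segments that separated a pair of groups involving the 21 mo mice and the segments that alternative tests called were named after their values were seen. The same holds for Sdc1 and Fkbp11 of the plasma cell list. By symbol 229 of the 231 segments matched RefSeq (GRCm38.p6), and all 229 overlapped its position. On simulated counts for 21 mo against 18 mo mice with 200 of 15673 genes changed 4-fold, edgeR recovered 66.5% and 6.34% of its calls were false.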

Additional observations from a re-analysis of the deposited data

How the results depend on the processing

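By edgeR 0 segments were called in each of the 3 comparisons, and this stayed so with upper-quartile or relative log expression normalization, with immunoglobulin segments kept out of the library sizes, with only the 6 libraries compared, and with the replicate block. DESeq2 called 8 segments in 21 mo against 18 mo mice, all higher and among them Ighm and Ighg1. It called 1 in each of the other comparisons, Ighv1-52 both times and higher. Over all genes it called 6.9%, 1.71% and 0.325% higher and 5.41%, 4.04% and 0.559% lower. The limma voom fit with quality weights called 28, 70 and 3 segments, the 3 being Ighg1, Ighv9-4 and Ighv1-9. Of the 28, 2 were higher and 26 lower, where 26.3% of all genes were called higher and 26.6% lower. All 70 were higher, where 21.2% of all genes were called higher and 19.8% lower. The 3 were higher too, where 1.04% of all genes were called higher and 1.57% lower. With every gene of at least 1 count tested, 3 were called in 21 mo against 18 mo mice (Ighm, Ighg1 and Igkv4-57-1), where 1.43% of all genes were called higher. Leaving out 1 library gave 0 to 7 calls there, 7 without 21 mo replicate 1, where 13.6% of all genes were called higher, and 0 in the other 2 comparisons. When 1 library was left out the log2 ratio of the summed constant level ranged from -0.689 (without 21 mo replicate 3) to 1.71 in 21 mo against 18 mo mice, from -0.374 to 2.03 (without 21 mo replicate 3) in 21 mo/O304 against 21 mo mice, and from 0.904 to 1.66 in 21 mo/O304 against 18 mo mice.

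Several single genes changed sign in 21 mo against 18 mo mice. Under limma voom the log2 fold change was -0.702 for Igkc, -1.949 for Ighg2c, -2.032 for Ighg2b, -1.564 for Iglc1, -0.597 for Jchain and -1.394 for Mzb1. When 1 library was left out it ranged from -0.571 to 1.728 for Igkc, -1.35 to 0.07 for Igha, -0.058 to 4.688 for Ighg2c, -1.754 to 4.031 for Ighg2b, -1.398 to 1.752 for Iglc1, -0.685 to 1.271 for Jchain and -1.183 to 0.894 for Mzb1. In 21 mo/O304 against 21 mo mice Ighm was 1.47 under limma voom, and Igkc ranged from -0.271 to 2.028. The cause was not tested beyond the library weights and the omissions themselves. Igha in 21 mo against 18 mo mice was lowest without 21 mo replicate 3 and positive without 21 mo replicate 1.

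The replicate numbers in the labels are shared by the groups, but nothing says what they mark. Correlations of same-numbered libraries' deviations from the group means ran from -0.13 to 0.175, so the numbers were not treated as pairs. With the replicate number as a block 0 segments were called in each comparison, and Mzb1 changed sign to -0.049 in 21 mo against 18 mo mice.

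Depth limited Ighd, Ighe and many V segments to few counts per library. With 3 mice per group and an SD above the mean in the 21 mo group, no segment passed the edgeR test with all 9 libraries and the filter on low counts.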

Other observations

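The short joining (J) segments, which sit between V and constant regions and were not counted among the members, had 1 to 65 counts per library over 14 genes, most in 21 mo replicate 3 (65) and 21 mo/O304 replicate 2 (49) and fewest in 21 mo replicate 2 (1). Diversity segments had 1 count each in 21 mo/O304 replicates 2 and 3 and 0 elsewhere. Of 155 annotated V pseudogenes 9 had any count, with 0 to 12 counts per library. Non-functional V segments thus held at most 12 counts in a library, where the functional Ighv segments held 206 to 6076.

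The 2 V segments of the Igkv17 family took 18.5% of Igkv counts in 21 mo replicate 3, 17.5% in 21 mo/O304 replicate 2 and 8.11% in 18 mo replicate 1, and 0.894% to 3.31% in the other 6 libraries. The Igkv1 family took 6.04% in 21 mo replicate 3 and 11.7% to 23.8% in the others. The 2 Ighv10 segments took 0% to 3.24% of Ighv counts, a count of 0 in 18 mo replicate 2 allowing up to 3 of 206 counts.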
